A study of Mus musculus with 2 samples.

Results

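The genes described are the transcription factor genes Tox, Tox2, Nr4a1, Nr4a2 and Nr4a3, 5 of the 32285 genes in the deposited count tables, followed through marker-defined CD8 T cell subsets, Foxp3 T cells, natural killer (NK) cells and monocyte subsets. They were chosen by symbol, with earlier results of these data known. The cells were CD45+ immune cells, sorted from tumours that grew under the skin of wild type BALB/c mice after injection of MFC, a carcinoma line of the mouse forestomach. They were profiled with a 10x Genomics 3′ V2 kit. A single library came from mice dosed with the surfactant thonzonium bromide at 50 mg/kg every other day from day 6, and a single library from mice that received PBS (control). Mice were killed on day 10. The labels carry the dosing text on both samples, so the groups rest on the treatment label, and how many mice entered a library is not stated.

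TOX is a DNA-bending HMG-box protein known from chronically stimulated CD8 T cells, where it supports the exhausted state, and TOX2 is its close relative. The NR4A proteins are orphan nuclear receptors whose genes are switched on within minutes of antigen receptor signalling and other stimuli. In mouse CD8 T cells they act alongside TOX, in regulatory T cells they help to maintain Foxp3, and NR4A1 is needed for the nonclassical monocyte.

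The promoters of the 3 Nr4a genes are shown because these genes are usually described as a family of immediate early genes with shared control by cyclic AMP signalling, while their levels below differed widely between cell types. The windows are the 250 bases before the RefSeq start of each gene in GRCm38.p6, read 5′ to 3′ on the gene's strand, and the capitals mark the cAMP response element half-site TGACG or its reverse complement CGTCA. Nr4a1 is shown for chr15:101266596-101266845 on the plus strand, Nr4a2 for chr2:57124004-57124253 on the minus strand and Nr4a3 for chr4:48045055-48045304 on the plus strand.
Nr4a1: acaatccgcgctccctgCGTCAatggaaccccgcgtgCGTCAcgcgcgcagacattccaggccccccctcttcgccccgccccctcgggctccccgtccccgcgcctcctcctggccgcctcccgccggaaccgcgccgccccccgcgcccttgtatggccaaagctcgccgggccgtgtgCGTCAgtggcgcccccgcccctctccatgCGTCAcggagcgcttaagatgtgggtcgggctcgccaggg
Nr4a2: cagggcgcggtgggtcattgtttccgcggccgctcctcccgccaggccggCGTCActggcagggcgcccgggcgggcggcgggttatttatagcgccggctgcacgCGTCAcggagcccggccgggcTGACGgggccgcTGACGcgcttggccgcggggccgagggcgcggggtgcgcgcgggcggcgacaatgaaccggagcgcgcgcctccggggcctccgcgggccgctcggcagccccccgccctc
Nr4a3: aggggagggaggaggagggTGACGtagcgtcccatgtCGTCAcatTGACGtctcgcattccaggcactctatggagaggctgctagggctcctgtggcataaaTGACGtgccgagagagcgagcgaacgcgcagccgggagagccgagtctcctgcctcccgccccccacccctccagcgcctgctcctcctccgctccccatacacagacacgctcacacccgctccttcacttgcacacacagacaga
Each of the 3 windows held 4 half-sites on either strand, counted with overlaps allowed. Of 32817 RefSeq promoter windows of the same length, 17.7% held at least 1 half-site and 0.137% held at least 4. The full palindrome TGACGTCA was in none of the 3 windows and in 1.55% of all windows, and contains the half-site on both strands. The NFAT core GGAAA was found once, in the Nr4a2 window, against at least 1 copy in 55.6% of all windows. The NR4A monomer element AAAGGTCA was in none of the 3, against 1.34% of all windows. These matches describe letters, not bound sites. The GENCODE model of Nr4a1 starts upstream of its window, and that of Nr4a3 starts inside it. Tox2 has 5 annotated start windows, of which 1 holds a single half-site. Tox is named only.

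In GENCODE coordinates on GRCm38, Tox (ENSMUSG00000041272) lies on chromosome 4 from 6686353 to 6991557 and Nr4a3 (ENSMUSG00000028341) on the same chromosome from 48045153 to 48086447. Tox2 (ENSMUSG00000074607) lies on chromosome 2 from 163203125 to 163324170 and Nr4a2 (ENSMUSG00000026826) on the same chromosome from 57106830 to 57124003. Nr4a1 (ENSMUSG00000023034) lies on chromosome 15 from 101254269 to 101274795.

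After filtering, the thonzonium library held 5833 cells with 50871432 unique molecular identifiers (UMIs, counted molecules) and a median of 7259 UMIs per cell. The control library held 6419 cells with 44148296 UMIs and a median of 4300. Gates took 4871 and 4422 of these cells, and every check marker not used for gating, 64 of 64 values over 8 gates and both libraries, was higher inside its gate than in all other cells. The subsets of CD8 T and NK cells and the Cd4 T, other T and dendritic gates had no such check. For CD8 T cells the check used general T cell genes such as Trac and Cd5, which do not separate them from other T cells. Levels are the UMIs of a gene over all UMIs of the gate, scaled as CPM, with exact Poisson 95% intervals, and ratios carry exact conditional binomial 95% intervals. With 1 library per group there is no test of any difference, and the intervals cover counting error only. UMIs of a 3′ kit are not divided by gene length, so levels are compared between cells for 1 gene, and the proportions of the 3 Nr4a genes describe UMIs. A gate needed 50 cells in a library for a level. Barcode sequences shared by the libraries numbered 14 as deposited and 9 among the cells kept.

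The genes were not all highest in the same cells of the infiltrate. Tox was a T cell transcript, highest in CD8 T cells, and Nr4a2 was also highest in CD8 T cells, outside the naive-gene gate. Nr4a1 was highest in nonclassical monocytes. Among lymphocytes Nr4a3 was highest in Foxp3 T cells, and it was also found in dendritic cells and neutrophils. Tox2 was sparse. The panel of levels by gate and library shows these orders side by side.

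**Figure D1:**
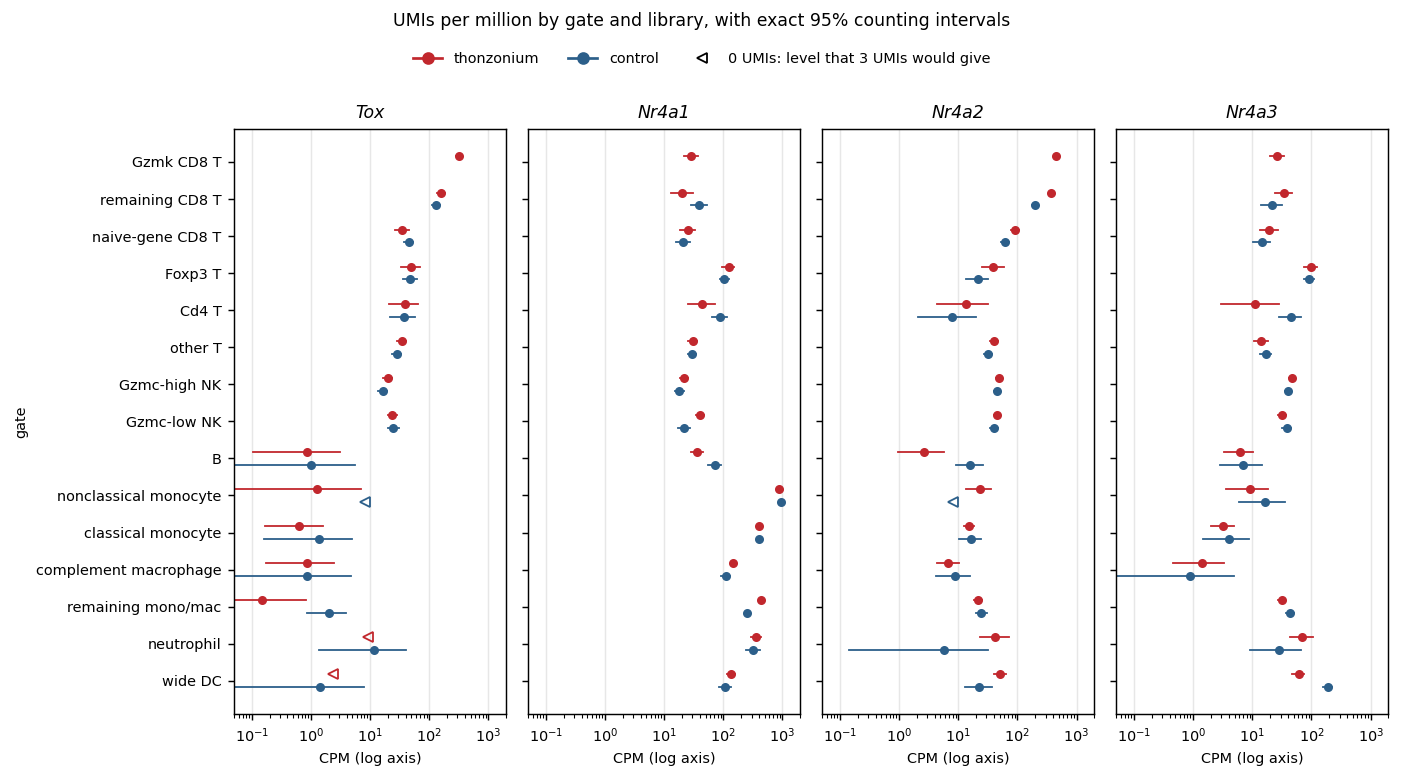
Points give CPM (log axis) of Tox, Nr4a1, Nr4a2 and Nr4a3 in each gate, thonzonium in red and control in blue, with exact 95% counting intervals, and open triangles mark the level of 3 UMIs where a gate had 0 UMIs. Tox and Nr4a2 peak in CD8 T gates (314 and 444 CPM in Gzmk CD8 T cells of the thonzonium library), and Nr4a1 peaks in nonclassical monocytes at 887 CPM in the thonzonium and 958 CPM in the control library.

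CD8 T cells were taken as cells with at least 2 UMIs of Cd3d, Cd3e and Cd3g, at least 2 of Cd8a and Cd8b1, and none of Foxp3 or Cd4. In these cells Tox stood at 167 CPM in the thonzonium library (871 UMIs in 553 cells, interval 156 to 178) and at 74.3 CPM in the control library (333 UMIs in 452 cells, 66.6 to 82.7). The level was 2.25 times as high in the thonzonium library (1.98 to 2.56). Across the 9049 genes with at least 50 UMIs in these cells, 3.05% were higher by at least 1.5-fold and 6.83% lower. Of the 4 members with that many UMIs, Tox and Nr4a2 were among the higher ones and none was among the lower ones.

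The CD8 T cells of the libraries fell into different subsets. Gzmk CD8 T cells, with at least 1 UMI of the granzyme gene Gzmk and at most 2 of Gzmf, numbered 231 of 553 CD8 T cells in the thonzonium library (41.8%) and 17 of 452 in the control library (3.76%). Their Tox level was 314 CPM in the thonzonium library (289 to 340). The 17 control cells, fewer than a gate needed for a level, held 13 Tox UMIs, or 95.9 CPM (51.1 to 164). These intervals did not overlap. The thonzonium subset levels were also weighted by each subset's share of the UMIs of control CD8 T cells. Tox in CD8 T cells was then at 85.9 CPM in the thonzonium and 74.3 CPM in the control library, a ratio of 1.16. This weighting includes 2 small thonzonium subsets with at least 3 Gzmf UMIs, of 22 cells without and 11 cells with Gzmk.

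For Tox the intervals in the other subsets of at least 50 cells included 1. Naive-gene CD8 T cells, with at least 2 UMIs of a set of naive-cell genes that includes Lef1, Ccr7 and Dapl1, and no Gzmk, had 34.9 CPM in the thonzonium and 44.8 CPM in the control library, a ratio of 0.779 (0.563 to 1.07), or 1.36 with cells thinned to 1000 UMIs. The remaining CD8 T cells had 158 and 132 CPM, a ratio of 1.198 (0.962 to 1.49), and from 1.09 to 1.66 over the alternative settings. With the main settings no difference between the libraries was detectable in these 2 subsets beyond counting error. In each of them the highest alternative value lay above the interval. Gzmf CD8 T cells, marked by a granzyme of strongly activated killer cells, held 29 Tox UMIs in 22 thonzonium cells and 44 in 41 control cells.

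Inside the thonzonium library, the Tox level of Gzmk CD8 T cells was 8.98 times that of naive-gene CD8 T cells (6.92 to 11.8) and 1.98 times that of the remaining CD8 T cells (1.67 to 2.35), or 3.06 times with cells thinned to 1000 UMIs. In the first of these comparisons 16.1% of 6659 genes were higher by at least 1.5-fold and 10.3% lower, and 2 of the 4 measured members, Tox and Nr4a2, were higher. In the second, 8.99% of 6037 genes were higher and 5.37% lower, and Tox was the 1 measured member past 1.5-fold. The remaining CD8 T cells exceeded naive-gene CD8 T cells in Tox in both libraries, 4.53-fold (3.39 to 6.14) in the thonzonium and 2.95-fold (2.30 to 3.79) in the control library. In that comparison 11.5% of 5943 genes were higher by at least 1.5-fold and 9.42% lower in the thonzonium library, and 3 of 4 measured members (Tox, Nr4a2 and Nr4a3) were higher. In the control library 7.90% of 6897 genes were higher and 9.06% lower, and 3 of 4 (Tox, Nr4a1 and Nr4a2) were higher.

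Counted per cell, Tox was spread widely over the Gzmk CD8 T cells. At least 1 Tox UMI was found in 171 of the 231 thonzonium cells, the median was 2 and the highest 16, and the tenth of cells with the most UMIs held 34.3% of them. With each cell thinned to 1000 UMIs, a Tox UMI was found in 28.1% of Gzmk CD8 T cells of the thonzonium library (22.4 to 34.4). Over all CD8 T cells the thinned share was 15.8% (12.8 to 19.1) in the thonzonium and 6.44% (4.36 to 9.12) in the control library, against 52.6% and 33.0% before thinning.

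B cells, which should lack Tox, set the level of free RNA. They had 2 Tox UMIs in 500 thonzonium cells and 1 in 223 control cells, at median depths of 3704.5 and 3858 UMIs, against 8177 and 8574.5 in CD8 T cells. After thinning no B cell held a Tox UMI, which allows up to 0.602% of 498 thonzonium cells and 1.36% of 220 control cells with one. Erythroid barcodes, a background for all 5 genes, held 0 Tox UMIs in 37 thonzonium barcodes and 3 in 411 control barcodes. The Tox shares of CD8 T cells lay above these backgrounds in both libraries.

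**Figure D2:**
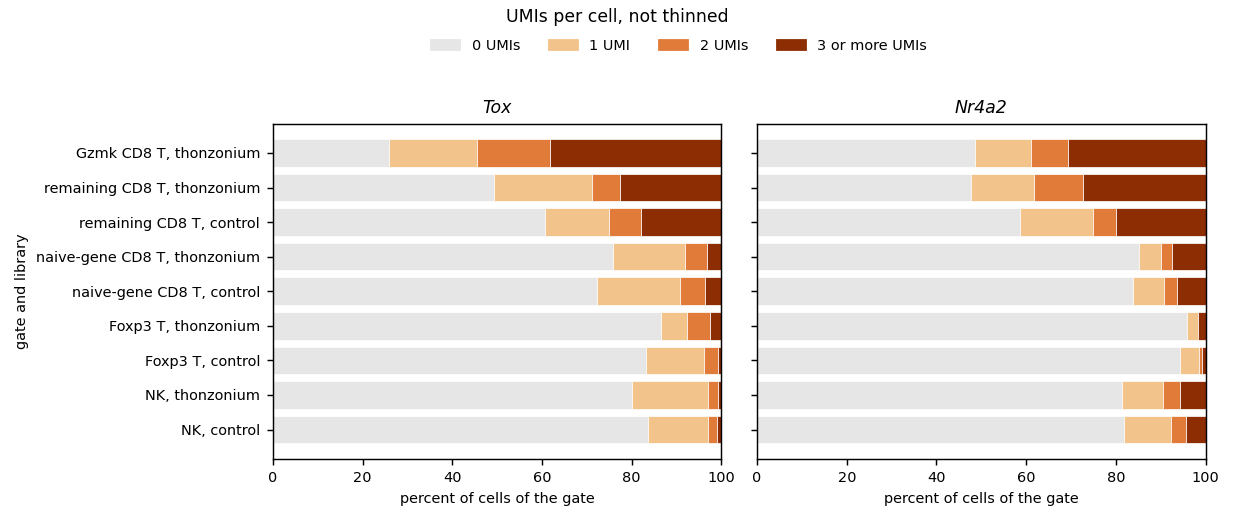
Stacked bars give the percent of cells of each gate and library with 0, 1, 2 or at least 3 UMIs of Tox (left) and Nr4a2 (right), without thinning. Gzmk CD8 T cells of the thonzonium library hold a Tox UMI in 171 of 231 cells and an Nr4a2 UMI in 119 of 231, while most Foxp3 T and NK cells hold none.

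The ranking of Tox outside CD8 T cells was alike in both libraries. Foxp3 T cells, the regulatory lineage, had 49.4 CPM in the thonzonium and 47.4 CPM in the control library, a ratio of 1.04 (0.642 to 1.66). Cd4 T cells without Foxp3 had 38.4 and 36.7 CPM, and the other T cells 34.3 and 28.1 CPM, with 14 and 19 UMIs behind the Cd4 values. Among the other T cells 1.65% of 9356 genes were higher by at least 1.5-fold and 6.42% lower, and none of the 4 measured members was. These 3 gates and the naive-gene CD8 T cells formed a run of neighbours in which each interval overlapped the next, in both libraries.

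NK cells had 21.6 CPM of Tox in the thonzonium and 19.1 CPM in the control library, a ratio of 1.13 (0.937 to 1.37). Foxp3 T cells stood above NK cells by 2.29 times (1.503 to 3.37) in the thonzonium and 2.48 times (1.81 to 3.35) in the control library. CD8 T cells stood above NK cells by 7.74 times (6.72 to 8.95) in the thonzonium and 3.89 times (3.26 to 4.65) in the control library. In the CD8 T over NK comparison 9.84% of 9857 genes were higher by at least 1.5-fold in the thonzonium and 12.3% of 9840 genes in the control library, and 12.3% and 10.0% were lower. In each library Tox and Nr4a2 were higher in CD8 T cells by that fold, Nr4a3 was lower and Nr4a1 was within it.

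Monocytes and macrophages were at the floor for Tox, with 9 UMIs in 1881 thonzonium cells and 11 in 927 control cells. Neutrophils held 0 Tox UMIs in 100 thonzonium cells and 2, in a single cell, in 57 control cells. These counts are of the size seen in B cells and are read as background.

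Tox2 was sparse everywhere. CD8 T cells held 15 UMIs in 11 thonzonium cells and 1 UMI in 1 control cell, a ratio of 12.9 with an interval of 1.98 to 543. Of the 15 UMIs, 9 were in Gzmk CD8 T cells and 4 in the remaining CD8 T cells. Foxp3 T cells held 0 and 2 UMIs, NK cells 0 and 0, B cells 0 and 0, and monocytes and macrophages 6 and 4 UMIs, thonzonium before control in each pair. A count of 0 in 1024 thonzonium and 1025 control NK cells allows up to 0.293% of cells with a Tox2 UMI at this depth, by the limit of 3 counts, and does not bound the share of cells that express the gene. Of its relatives outside the members, the broadly expressed Tox4 had 69.0 CPM in thonzonium and 78.8 CPM in control CD8 T cells, a ratio of 0.876, and Tox3 had too few UMIs to be measured.

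Part of the Gzmk CD8 T cells shared a T cell receptor beta segment, Trbv13-1, and Tox and Nr4a2 differed along it. Of the 231 thonzonium Gzmk CD8 T cells, 46 held a UMI of Trbv13-1, and of the 17 control ones none did. Tox was at 484 CPM (417 to 559) in those 46 cells and at 271 CPM (245 to 298) in the other 185. The 17 cells in which only another beta segment was seen had 92.4 CPM (57.9 to 140). The sets of 46 and 17 cells are under the 50 cells asked of a gate, and the 17 are among the 185. The other 168 of the 185 held no beta segment UMI, so their segment is unknown. They had 304 CPM of Tox (274 to 336). Nr4a2 followed the same order, at 574 CPM in the 46, 411 CPM in the 185 and 286 CPM in the 17 cells. The intervals overlapped for Nr4a1, at 21.0 CPM (9.09 to 41.5) with a UMI of the segment and 30.6 CPM (22.4 to 40.8) without. They also overlapped for Nr4a3, at 39.5 CPM (22.1 to 65.1) and 23.3 CPM (16.2 to 32.4).

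Of the 15 Tox2 UMIs of thonzonium CD8 T cells, 10 were in the 57 cells with a Trbv13-1 UMI. Without the cells that held a UMI of this segment, Tox in CD8 T cells was at 140 CPM in the thonzonium and 74.2 CPM in the control library, a ratio of 1.89. Nr4a2 was at 270 and 159 CPM, a ratio of 1.70. No beta segment UMI was seen in 402 of 553 thonzonium and 337 of 452 control CD8 T cells. Cells that carry Trbv13-1 unseen may therefore remain in these values. Whether the cells with a Trbv13-1 UMI share a whole receptor was not tested.

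Nr4a2, which encodes the orphan receptor also called NURR1, was highest in CD8 T cells outside the naive-gene gate. In CD8 T cells it was at 294 CPM (1534 UMIs, 280 to 309) in the thonzonium and 157 CPM (702 UMIs, 145 to 169) in the control library, a ratio of 1.88 (1.72 to 2.06). With the subsets weighted by their control UMIs, as for Tox, it was at 203 and 157 CPM, a ratio of 1.30. In both subsets with at least 50 cells in each library, naive-gene and remaining CD8 T cells, the Nr4a2 CPM stood higher in the thonzonium library. A few cells set the naive-gene level.

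In naive-gene CD8 T cells Nr4a2 was at 90.9 CPM in the thonzonium and 61.1 CPM in the control library, a ratio of 1.49 (1.19 to 1.87). No Nr4a2 UMI was found in 137 of 161 thonzonium and 208 of 248 control cells of this gate. The tenth of cells with the most UMIs held 95.1% of them in the thonzonium and 89.6% in the control library. The counting interval does not cover this concentration in few cells. There 2.22% of 7209 genes were higher by at least 1.5-fold and 7.73% lower, and none of the 4 measured members was past that fold. In the remaining CD8 T cells it was at 374 and 200 CPM, a ratio of 1.87 (1.59 to 2.20). In these cells 3.44% of 5327 genes were higher by at least 1.5-fold and 7.57% lower. Nr4a2 and Nr4a3 were higher (Nr4a3 34.5 and 21.8 CPM, ratio 1.59 with an interval of 0.942 to 2.71), and Nr4a1 was lower (20.4 and 39.3 CPM, ratio 0.518 with an interval of 0.2999 to 0.870, and 0.883 without lineage exclusions).

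Gzmk CD8 T cells held 836 Nr4a2 UMIs in 231 thonzonium cells, or 444 CPM (414 to 475), and 60 UMIs in 17 control cells, or 443 CPM (338 to 570). The thonzonium level was 4.88 times that of naive-gene CD8 T cells (4.12 to 5.80) and 1.19 times that of the remaining CD8 T cells (1.06 to 1.34). Gzmf CD8 T cells held 74 UMIs in 22 thonzonium cells, or 277 CPM (217 to 348), and 231 UMIs in 41 control cells, or 426 CPM (373 to 484). The control Gzmk gate and both Gzmf gates are under 50 cells, and in neither subset was Nr4a2 higher in the thonzonium library beyond the intervals. In contrast to Tox, the UMIs of Nr4a2 were concentrated in few cells. In Gzmk CD8 T cells of the thonzonium library 119 of 231 cells held one, the highest cell held 47, and the tenth of cells with the most UMIs held 61.1% of them.

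After thinning to 1000 UMIs, an Nr4a2 UMI was found in 17.6% of CD8 T cells (14.5 to 21.0) in the thonzonium and 9.11% (6.62 to 12.2) in the control library, against 42.5% and 31.6% before thinning. Erythroid barcodes held 0 Nr4a2 UMIs in 37 thonzonium and 4 in 411 control barcodes. The CD8 T over NK ratio of Nr4a2 was 6.26 (5.68 to 6.92) in the thonzonium and 3.62 (3.22 to 4.07) in the control library.

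Elsewhere Nr4a2 was lower. NK cells had 47.0 CPM in the thonzonium and 43.3 CPM in the control library, a ratio of 1.08 (0.957 to 1.23), and Gzmc-high and Gzmc-low NK cells did not differ beyond their intervals in either library. Foxp3 T cells held 23 UMIs in 5 thonzonium cells and 25 UMIs in 15 control cells. Against naive-gene CD8 T cells their Nr4a2 level was 0.431 times (0.266 to 0.669) in the thonzonium and 0.346 times (0.217 to 0.531) in the control library, where the Tox ratios were 1.41 (0.878 to 2.23) and 1.06 (0.753 to 1.47). In B cells 6 UMIs in 500 thonzonium cells stood against 16 in 223 control cells, a ratio of 0.164 (0.0524 to 0.440), with 4 and 7 cells behind them. Monocytes and macrophages had 16.4 and 19.0 CPM, a ratio of 0.865 (0.702 to 1.07). Nonclassical monocytes held 18 UMIs in 5 of 105 thonzonium cells and 0 in 64 control cells.

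Genes of the same programme were read from lists, each summarised by its members with at least 50 UMIs. The CD8 T values pool subsets whose proportions differed, with Gzmk CD8 T cells at 41.8% in the thonzonium and 3.76% in the control library. The list genes were not recalculated with equal subset proportions, so a change within a subset cannot be told from a change in proportions. In CD8 T cells, 6 of 9 inhibitory receptor genes were higher by at least 1.5-fold in the thonzonium library and none lower, with a median log2 ratio of 0.66 beside -0.05 over all 9049 genes. Of all these genes 3.05% were higher by that fold and 6.83% lower. Pdcd1, the gene of PD-1, was at 237 CPM in the thonzonium and 118 CPM in the control library, a ratio of 2.02 (1.82 to 2.24). The ectonucleotidase gene Entpd1 had the highest ratio, 2.49 (2.08 to 2.98), and Cd160 the lowest, 0.830 (0.718 to 0.960). The 3 genes not past that fold, Cd160, Tigit (0.859, 0.518 to 1.43) and Cd244a (0.951, 0.773 to 1.17), all had ratios under 1.

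Of 10 measured factors of antigen receptor signalling, 2 were higher and 2 lower, with a median log2 ratio of 0.03. The counts of these lists stand beside 3.05% of 9049 genes higher by at least 1.5-fold and 6.83% lower. Ikzf2, an Ikaros family gene, had the most UMIs and the lowest ratio, 0.466 (0.432 to 0.503), and Nfkbid, an NF-kB regulator gene, the highest, 2.07 (1.67 to 2.57). Of 8 progenitor and naive factors none was higher and 2 were lower, with a median of -0.30. Il7r, the interleukin 7 receptor gene with the most UMIs, had a ratio of 0.884 (0.811 to 0.965), and Id3 had the lowest, 0.317 (0.226 to 0.439). Of 8 effector factors 3 were higher and none lower, among them Id2, a regulator of effector differentiation, at 1.66 (1.58 to 1.75), while Klf2, a factor of cell egress, had the lowest ratio, 0.694 (0.634 to 0.760).

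Most listed immediate early and stress genes lay on the other side from Nr4a2 in these cells. The immediate early genes belong to the same class of rapidly induced genes as the Nr4a genes. Of 11 listed genes 6 were lower by at least 1.5-fold in the thonzonium library and none was higher, with a median log2 ratio of -0.71. Over all 9049 genes 6.83% were lower by that fold and 3.05% higher. Dusp1 lay on the same side as Nr4a2, at 1.22 (1.08 to 1.38). Jund had the most UMIs and a ratio of 1.00 (0.956 to 1.05), the stress gene Atf3 had the highest, 1.27 (0.834 to 1.94), and the heat shock gene Hspa1b the lowest, 0.396 (0.361 to 0.434). Their part in the Nr4a levels was not tested.

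In the thonzonium library alone, Gzmk CD8 T cells differed from naive-gene CD8 T cells along the same lists. Of 8 measured inhibitory receptor genes 7 were higher by at least 1.5-fold, with a median log2 ratio of 2.87 beside 0.10 over 6659 genes. Of all these genes 16.1% were higher by that fold and 10.3% lower. Pdcd1 was at 357 CPM in Gzmk CD8 T cells and 34.9 CPM in naive-gene ones, a ratio of 10.2 (7.89 to 13.5), and Cd200r1 had 67 UMIs against 0. All 8 progenitor and naive factors were lower, with a median of -2.71. Genes among them that define the naive-gene gate, such as Lef1 and Ccr7, are no finding here, while Tcf7, a factor of self-renewing T cells, was at 19.6 and 249 CPM, a ratio of 0.0789 (0.0548 to 0.110).

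Of 8 effector factors 5 were higher and 1 lower in Gzmk CD8 T cells. Over all 6659 genes of this comparison 16.1% were higher by at least 1.5-fold and 10.3% lower. Prdm1, the gene of BLIMP-1, had the highest ratio, 6.77 (3.77 to 13.2), and Klf2 the lowest, 0.234 (0.194 to 0.282). Of 10 immediate early and stress genes 3 were higher and 2 lower, with a median of 0.33.

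Single cells were compared within CD8 T cells, each thinned to 2000 UMIs. In the thonzonium library 136 cells kept a Tox UMI and 411 did not. Nr4a2 was at 504 CPM in cells with a Tox UMI and 191 CPM in cells without, a ratio of 2.64 (2.08 to 3.34). Pdcd1, Havcr2, Lag3 and Ctla4, all inhibitory receptor genes, had ratios from 1.55 to 1.70 with intervals above 1, and Tcf7, Lef1, Il7r and Klf2 had ratios from 0.178 to 0.349 with intervals below 1.

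Inside the Gzmk CD8 T gate, with 92 cells holding a Tox UMI and 138 not, Nr4a2 was at 495 and 333 CPM, a ratio of 1.48 (1.10 to 2.00). The intervals of the 11 other genes measured there all included 1. In the control library 54 CD8 T cells held a Tox UMI and 387 did not. There Nr4a2 was at 213 and 129 CPM, a ratio of 1.65 (0.999 to 2.61), and Lag3 had a ratio of 2.74 (1.50025 to 4.82). The intervals included 1 for Pdcd1 (1.11, 0.613 to 1.90), Havcr2 (1.01, 0.414 to 2.12), Ctla4 (1.64, 0.850 to 2.97), Il7r (0.704, 0.432 to 1.09) and Klf2 (0.999, 0.676 to 1.43). Tcf7 (0.429, 0.202 to 0.809) and Lef1 (0.389, 0.153 to 0.824) had intervals below 1 there too.

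The CD8 T cells were also split by an Nr4a2 UMI. Tox was at 328 CPM in 131 thonzonium cells with an Nr4a2 UMI and 147 CPM in 416 without, a ratio of 2.24 (1.68 to 2.97). In the control library it was at 136 CPM in 77 cells with and 60.4 CPM in 364 without, a ratio of 2.26 (1.27 to 3.88). Havcr2, the gene of TIM-3, had a ratio of 2.44 (1.67 to 3.54) in the thonzonium and 4.05 (2.40 to 6.79) in the control library. Tcf7 had a ratio of 0.0843 (0.0171 to 0.253) in the thonzonium and 0.137 (0.0441 to 0.327) in the control library. The ratio of Irf8, an interferon regulatory factor gene, differed between the libraries beyond the counting intervals. It was 0.831 (0.585 to 1.16) in the thonzonium and 2.46 (1.83 to 3.29) in the control library. The intervals of the libraries overlapped for Zeb2, an effector factor gene, at 1.43 (0.771 to 2.55) and 3.42 (1.86 to 6.21), thonzonium before control. They also overlapped for Ikzf2, at 0.495 (0.308 to 0.764) and 0.967 (0.725 to 1.27). Inside the Gzmk CD8 T gate of the thonzonium library, with 75 cells holding an Nr4a2 UMI and 155 not, the Tox ratio was 1.29 (0.913 to 1.82). There the intervals of Havcr2 (1.72, 1.02 to 2.88) and Ctla4 (1.69, 1.19 to 2.39) lay above 1, and those of the other genes measured included it.

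**Figure D3:**
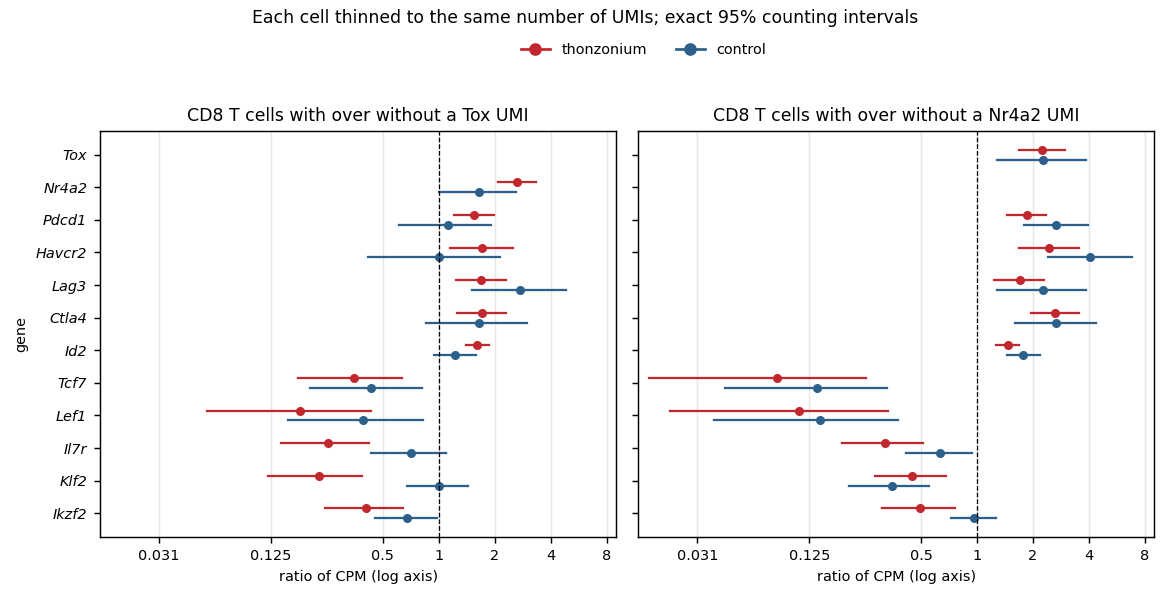
Points give the ratio of CPM (log axis) between CD8 T cells with and without a Tox UMI (left) and with and without an Nr4a2 UMI (right) for 12 genes, thonzonium in red and control in blue, each cell thinned to 2000 UMIs, with exact 95% counting intervals. In the Tox split of the control library Pdcd1 (1.11), Havcr2 (1.01) and Klf2 (0.999) lie near 1, and Tcf7 and Lef1 lie to the left of 1 in both splits and libraries, with Tcf7 at 0.0843 in the thonzonium and 0.137 in the control library for the Nr4a2 split.

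Nr4a1, the gene of NUR77, was foremost a monocyte transcript. Monocytes and macrophages were taken as cells with at least 2 UMIs of Csf1r, Fcgr1 and Cd68, and nonclassical monocytes by at least 2 UMIs of Ace and Treml4. Nonclassical monocytes, the vessel-patrolling type, had 887 CPM of Nr4a1 in the thonzonium library (693 UMIs in 105 cells, 822 to 956) and 958 CPM in the control library (348 UMIs in 64 cells, 860 to 1064). The ratio was 0.926 (0.813 to 1.06), so no difference between the libraries was detectable beyond counting error. Among 3419 genes 8.48% were higher by at least 1.5-fold and 8.10% lower, and Nr4a1, the 1 measured member, was within that fold.

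Classical monocytes, gated on Vcan and Chil3 and known as the precursors that enter inflamed tissue, had 402 CPM in the thonzonium library (386 to 417, 659 cells) and 401 CPM in the control library (370 to 435, 187 cells), a ratio of 1.00 (0.916 to 1.10). Complement macrophages, with at least 5 UMIs of the C1q genes, had 147 CPM in 332 thonzonium cells and 111 CPM in 149 control cells, a ratio of 1.32 (1.09 to 1.61), which was 1.04 with stricter gates and 2.06 with cells thinned to 1000 UMIs. No measured member was past 1.5-fold in classical monocytes (6.14% of 7946 genes higher, 4.64% lower) or in complement macrophages (7.04% of 7143 genes higher, 5.64% lower). The order nonclassical, classical, complement macrophage held in both libraries with no overlap of intervals.

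Within a library the nonclassical level was 2.21 times the classical one (2.03 to 2.40) in the thonzonium and 2.39 times (2.09 to 2.73) in the control library. In that comparison 16.2% of 7799 genes were higher by at least 1.5-fold in the thonzonium library and 16.1% of 4537 genes in the control library, and 15.5% and 17.3% were lower. Nr4a1 was the 1 member measured and called in the control library, and Nr4a1 and Nr4a2 (ratio 1.51, 0.859 to 2.51) were the 2 in the thonzonium library. The classical level was 2.74 times the macrophage one (2.49 to 3.01) in the thonzonium and 3.61 times (2.97 to 4.399) in the control library.

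Nr4a1 was also broad among cells. A UMI was found in 93 of 105 nonclassical thonzonium cells with a median of 5 and in 51 of 64 control cells with a median of 3. After thinning to 1000 UMIs the shares were 44.6% (34.7 to 54.8) and 53.2% (40.1 to 66.0) in nonclassical monocytes, 27.4% and 25.8% in classical monocytes, and 12.2% and 6.43% in complement macrophages, thonzonium before control. Erythroid barcodes held 0 Nr4a1 UMIs in 37 thonzonium and 18 in 411 control barcodes, and after thinning 0 of 392 control barcodes held one, which allows up to 0.765% with one.

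The other immediate early and stress genes were mixed between these gates. Of 11 of them, 2 were higher and 2 lower by at least 1.5-fold in nonclassical than in classical monocytes of the thonzonium library, with a median log2 ratio of -0.13 beside 0.05 over all genes. In the control library 4 were higher and 1 lower, with a median of 0.16 beside 0.00. Over all genes 16.2% were higher and 15.5% lower in the thonzonium library, and 16.1% and 17.3% in the control library. Fos was lower, at 0.530 (0.495 to 0.566) in the thonzonium and 0.610 (0.552 to 0.674) in the control library, while Hspa1b was higher, at 2.56 (2.34 to 2.81) and 1.72 (1.53 to 1.94).

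Over all monocytes and macrophages Nr4a1 was at 384 CPM (6761 UMIs in 1881 cells) in the thonzonium and 297 CPM (2080 UMIs in 927 cells) in the control library, a ratio of 1.29 (1.23 to 1.36). Among 10295 genes 2.88% were higher by at least 1.5-fold and 10.4% lower, and of the 3 measured members Nr4a3 was lower and none was higher. The cells in none of the 3 named subsets, 785 thonzonium and 527 control cells, had 432 and 251 CPM, a ratio of 1.72 (1.60 to 1.85). The interval of the ratio excluded 1 in these cells and in complement macrophages and included it in both monocyte gates. Neutrophils had 357 and 320 CPM, a ratio of 1.12 (0.805 to 1.56), with 18.7% of 1158 genes higher by 1.5-fold and 16.1% lower and no measured member past it. Fos had a ratio of 1.32 (1.28 to 1.35) and Hspa1b of 0.505 (0.487 to 0.524) over all monocytes and macrophages, and their part in the Nr4a1 level was not tested.

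**Figure D4:**
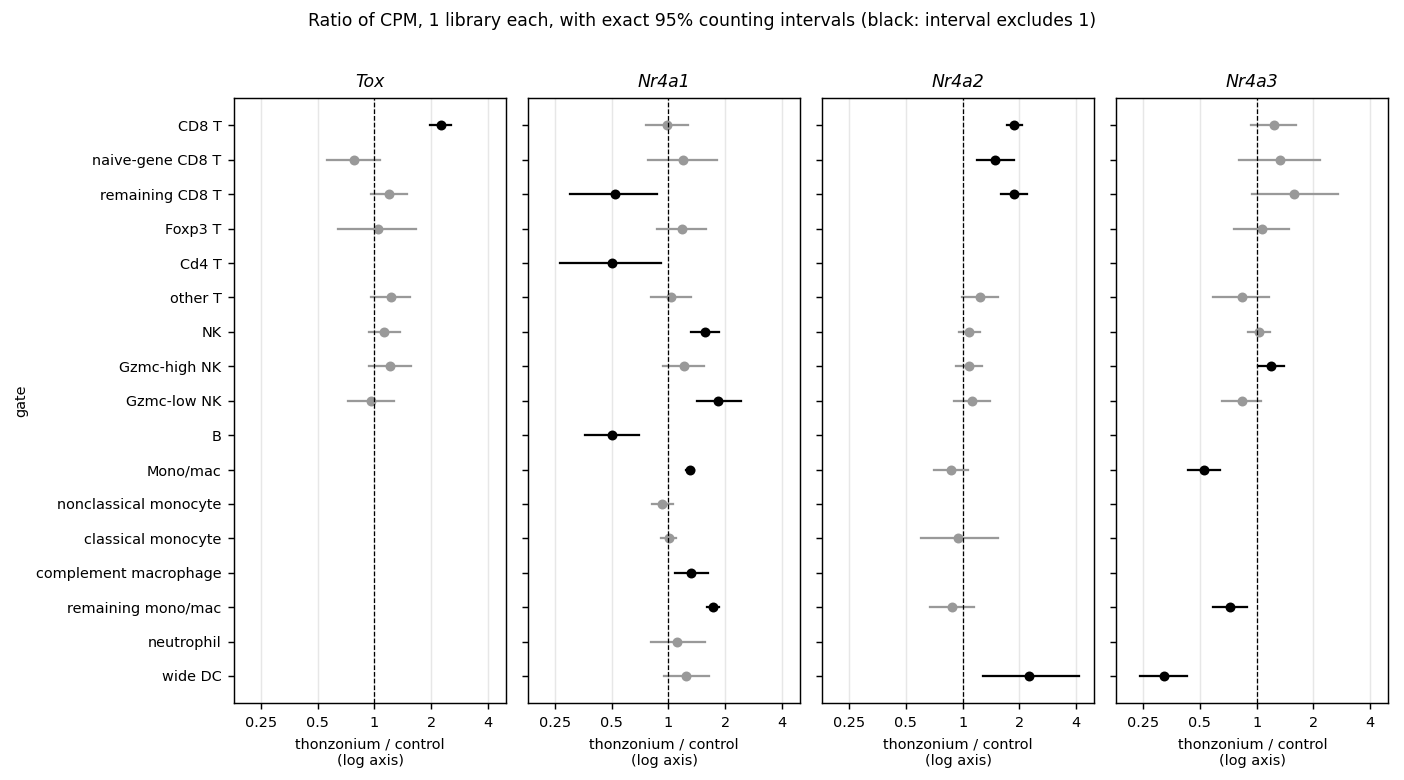
Points give the thonzonium over control ratio of CPM (log axis) of Tox, Nr4a1, Nr4a2 and Nr4a3 in each gate with at least 50 UMIs over both libraries, with exact 95% counting intervals drawn in black where they exclude 1. Tox and Nr4a2 are at 2.25 and 1.88 in CD8 T cells, while Nr4a1 ranges from 0.503 in B cells to 1.84 in Gzmc-low NK cells.

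Among lymphocytes Nr4a1 had its highest CPM in Foxp3 T cells, with 123 CPM (72 UMIs in 119 cells, 96.0 to 155) in the thonzonium and 104 CPM (123 UMIs in 261 cells, 86.5 to 124) in the control library, a ratio of 1.18 (0.869 to 1.59). The Foxp3 T over Cd4 T ratio was 2.80 (1.61 to 5.15) in the thonzonium library but 1.20 (0.844 to 1.72) in the control library. After thinning to 1000 UMIs a Nr4a1 UMI was found in 8.40% of Foxp3 T and 2.67% of Cd4 T cells of the thonzonium library, and in 6.64% and 8.20% in the control library, so the order turned there. Among 4895 genes 4.47% were higher by at least 1.5-fold and 6.37% lower in these cells, and none of the 3 measured members, Tox, Nr4a1 and Nr4a3, was. Foxp3 T cells stood above NK cells 4.08-fold (3.12 to 5.27) in the thonzonium and 5.40-fold (4.29 to 6.78) in the control library, and the thonzonium value was 2.04-fold with cells thinned to 1000 UMIs. CD8 T cells had 25.7 and 26.1 CPM, a ratio of 0.984 (0.762 to 1.27), so Nr4a1 did not follow Nr4a2 there. That ratio was 0.543 with cells thinned to 1000 UMIs, where 10 and 15 cells held an Nr4a1 UMI.

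NK cells had 30.1 CPM of Nr4a1 in the thonzonium library (347 UMIs in 1024 cells) and 19.3 CPM in the control library (211 UMIs in 1025 cells), a ratio of 1.56 (1.31 to 1.86). Among 10200 genes 2.35% were higher by at least 1.5-fold and 2.36% lower, and Nr4a1 was the 1 of 4 measured members past that fold. Split at 0.2% of a cell's UMIs from Gzmc, a granzyme gene of activated NK cells, the Gzmc-low cells had 40.4 and 22.0 CPM, a ratio of 1.84 (1.41 to 2.43), or 3.49 with stricter gates. The Gzmc-high cells had 21.7 and 18.0 CPM, a ratio of 1.201 (0.941 to 1.53), or 2.25 after thinning. With cells thinned to 1000 UMIs the NK ratio was 2.61, from 41.1 and 15.7 CPM.

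In the NK comparison 4 of 11 immediate early and stress genes were lower in the thonzonium library and none was higher, with a median log2 ratio of -0.21, so Nr4a1 was higher where none of these was. The classes are a range of Gzmc and not types, with 55 thonzonium and 81 control cells within 1.5-fold of the dividing level. Within the thonzonium library Gzmc-high cells had 0.536 times the Nr4a1 of Gzmc-low cells (0.429 to 0.667), against 0.821 times (0.615 to 1.10) in the control library. Among 9202 genes 4.64% were higher and 9.90% lower by 1.5-fold in the thonzonium library, where Nr4a1 was the 1 measured member lower. Among 9131 genes in the control library 4.90% were higher and 7.64% lower, where Tox (16.4 and 24.9 CPM, ratio 0.661 with an interval of 0.498 to 0.881) was the 1 measured member lower.

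B cells and Cd4 T cells had less Nr4a1 in the thonzonium library. In B cells it was at 36.0 CPM (83 UMIs in 500 cells) in the thonzonium and 71.7 CPM (72 UMIs in 223 cells) in the control library, a ratio of 0.503 (0.362 to 0.699), or 0.313 with stricter gates. It was the 1 measured member in B cells, where 6.62% of 6446 genes were higher by at least 1.5-fold and 11.0% lower. Immediate early and stress genes were lower as well there, 4 of 10 by at least 1.5-fold and none higher, with a median log2 ratio of -0.56. In Cd4 T cells Nr4a1 was at 43.9 CPM (16 UMIs in 75 cells) in the thonzonium and 87.0 CPM (45 UMIs in 124 cells) in the control library, a ratio of 0.504 (0.266 to 0.9098), in a gate where 5.57% of 2691 genes were higher and 18.4% lower and Nr4a1 was the 1 measured member. That ratio was 0.271 with cells thinned to 1000 UMIs.

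Nr4a3, the gene of NOR1, had its highest lymphocyte level in Foxp3 T cells. It was at 97.1 CPM (57 UMIs, 73.6 to 126) in the thonzonium and 91.4 CPM (108 UMIs, 75.0 to 110) in the control library, a ratio of 1.06 (0.757 to 1.48). The UMIs came from few cells, 11 of 119 thonzonium and 23 of 261 control cells, and the single highest cell held 15 and 40 of them. A few cells thus set the level.

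Foxp3 T cells stood above Cd4 T cells in Nr4a3 in both libraries. The ratio was 8.86 (3.28 to 33.6) in the thonzonium library, where 4 Cd4 T cell UMIs were counted, and 2.06 (1.30 to 3.38) in the control library, where 23 were. In that comparison 29.3% of 3025 genes were higher by at least 1.5-fold in the thonzonium and 13.8% of 4712 genes in the control library, with 8.26% and 5.33% lower. Both measured members, Nr4a1 and Nr4a3, were higher in the thonzonium library, and of 3 measured members in the control library Nr4a3 was. The Foxp3 T over NK ratio of Nr4a3 was 2.42 (1.81 to 3.19) in the thonzonium and 2.34 (1.88 to 2.90) in the control library, but with cells thinned to 1000 UMIs it was 1.60 and 0.949, which turned the order in the control library.

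NK cells had 40.1 CPM of Nr4a3 in the thonzonium and 39.003 CPM in the control library, a ratio of 1.03 (0.9001 to 1.18). Gzmc-high NK cells had 47.1 and 39.5 CPM, a ratio of 1.19 (1.01 to 1.40), and Gzmc-low NK cells 31.5 and 37.9 CPM, a ratio of 0.833 (0.658 to 1.06). None of the 4 measured members was past 1.5-fold in Gzmc-high NK cells, where 1.44% of genes were higher and 3.33% lower. In Gzmc-low cells, where 2.91% were higher and 2.45% lower, Nr4a1 was.

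Dendritic cells were another site of Nr4a3, in gates that were added after its UMIs had been seen in them. These gates set no limit on Csf1r, Fcgr1 and Cd68, so their cells can also be counted among monocytes and macrophages. Migratory dendritic cells, gated on Ccr7 and Fscn1, held 230 UMIs in 37 thonzonium cells and 188 UMIs in 24 control cells, with at least 1 UMI in 32 and 19 cells and medians of 4 and 3. A second gate, on Flt3 or Zbtb46 and class II genes, held 11 of the 37 thonzonium and 8 of the 24 control migratory cells and so leaves most of them out. It had 60.5 CPM (78 UMIs in 92 cells) in the thonzonium and 188 CPM (132 UMIs in 50 cells) in the control library, a ratio of 0.322 (0.240 to 0.430). A few cells set these levels: 69 of 92 thonzonium and 35 of 50 control cells held none, and the tenth of cells with the most UMIs held 73.1% and 75.8% of them. Among 4806 genes 6.39% were higher by at least 1.5-fold and 7.30% lower, and of 3 measured members Nr4a2 was higher and Nr4a3 lower. In that gate Nr4a2 was at 51.2 and 22.7 CPM, a ratio of 2.25 (1.29 to 4.16), from 14 and 6 cells. Nr4a3 is known in mice from migratory dendritic cells, where it supports Ccr7 expression.

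Over all monocytes and macrophages Nr4a3 was at 14.2 CPM (250 UMIs in 82 cells) in the thonzonium and 27.0 CPM (189 UMIs in 61 cells) in the control library, a ratio of 0.526 (0.434 to 0.639). Most of these UMIs, 217 thonzonium and 176 control, lay in cells outside the named subsets, where the ratio was 0.723 (0.590 to 0.888). Cells of the dendritic gates can be among them, and the shared UMIs were not counted. A gate like the second dendritic one, but with at most 1 UMI of Csf1r, Fcgr1 and Cd68, held 18 thonzonium and 10 control cells. Classical monocytes held 21 UMIs in 659 thonzonium cells and 6 in 187 control cells. Nr4a3 was thus low in the monocyte gates in which Nr4a1 was highest. Neutrophils had 69.5 CPM of Nr4a3 (23 UMIs in 100 cells) in the thonzonium and 28.5 CPM (5 UMIs in 57 cells) in the control library. The ratio was 2.44 (0.906 to 8.20).

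The make-up of Nr4a UMIs set the cell types apart. In CD8 T cells Nr4a2 gave 85.2% of 1801 Nr4a UMIs in the thonzonium and 77.0% of 912 in the control library. In Foxp3 T cells Nr4a1 gave 47.4% of 152 and Nr4a3 37.5% in the thonzonium library, against 48.0% and 42.2% of 256 in the control library. NK cells were mixed, with Nr4a1, Nr4a2 and Nr4a3 at 25.7%, 40.1% and 34.2% of 1352 UMIs in the thonzonium and at 19.0%, 42.6% and 38.4% of 1112 in the control library. Monocytes and macrophages were dominated by Nr4a1, with 92.6% of 7300 UMIs in the thonzonium and 86.6% of 2402 in the control library, and B cells likewise with 80.6% of 103 and 75.8% of 95.

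**Figure D5:**
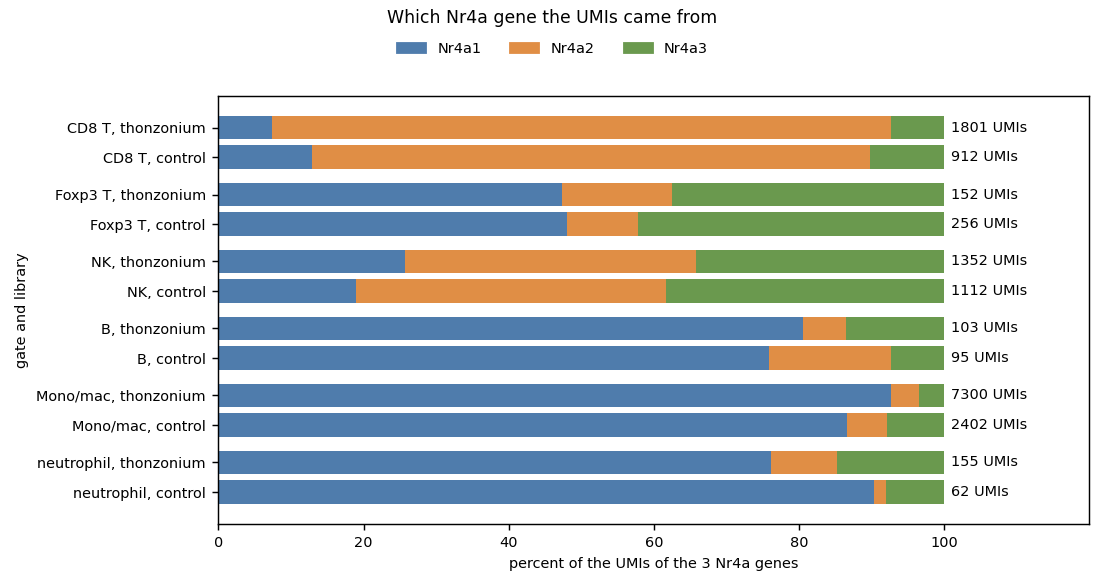
Stacked bars give the percent of all Nr4a UMIs that came from Nr4a1, Nr4a2 and Nr4a3 in 6 gates, thonzonium above control, with the number of UMIs beside each bar. Nr4a2 fills most of the bar in CD8 T cells (85.2% and 77.0%) and Nr4a1 in monocytes and macrophages (92.6% and 86.6%).

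Across 26 levels, from 13 gates in 2 libraries that share depth and handling, Pearson's r of log2(CPM + 10) between members was 0.73 for Tox with Nr4a2, -0.66 for Tox with Nr4a1 and -0.53 for Nr4a1 with Nr4a2. Nr4a3 had values between -0.13 and 0.43 with the others. The 13 gates leave out Gzmk CD8 T cells, which had the highest Tox and Nr4a2 levels of the thonzonium library. Gzmf CD8 T cells and the dendritic gates are left out too. Over 9710 genes with at least 200 UMIs, outside the gate genes, the patterns most like that of Tox were those of Abcb9, a lysosomal peptide transporter gene (r = 0.967), and Ubash3a, a regulator of T cell receptor signalling (0.940), with Gprin3 (0.937) and Gstp3 (0.929) also among the 5 highest. Most like Nr4a1 were the NAD kinase gene Nadk (0.961), Sbno2 (0.960), the vesicle coat gene Sec24b (0.958), the polyamine acetyltransferase gene Sat1 (0.955) and Zfand5 (0.947).

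The likeness was weaker for the other members. Most like Nr4a2 were Chaf1b, a chromatin assembly gene (0.857), the replication gene Mcm10 (0.786), Slco4a1 (0.784), Wdr95 (0.776) and Ticrr (0.774). All were at 32.7 CPM or less in their highest gate among those used for this comparison. Most like Nr4a3 were Gfod1 (0.844), Tes (0.807), Ubald2 (0.788), the triglyceride synthesis gene Dgat1 (0.779) and Pglyrp1 (0.770). By Spearman's rho, 1 of the 5 genes for Tox, 3 for Nr4a1, 4 for Nr4a2 and 5 for Nr4a3 were also among the 20 highest.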

How the data were processed

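The deposited files hold raw UMI counts per gene and cell barcode, made by the authors with Cell Ranger 6.1.2 per the file headers. Seurat 3.0, R 3.5.3 and the build mm10 are listed too, per the submitters' processing notes. A barcode was kept with 200 or more genes and no more than 20% of its UMIs mitochondrial. Cells were sorted into gates by raw UMIs of marker genes, and erythroid barcodes, with at least 50% haemoglobin UMIs, were taken out first. No doublet caller was run. Gates exclude markers of other lineages, apart from Csf1r, Fcgr1 and Cd68 in the added dendritic gates. An alternative leaves out cells above the 95th percentile of UMIs. A gene was measured with at least 50 UMIs over both gates compared. Shares were thinned with a fixed seed and carry Clopper-Pearson intervals, and the limit beside a count of 0 is 3 counts. The calculation was tested on simulated counts. Python 3.11.15, numpy 2.4.6, scipy 1.17.1, pandas 2.3.3 and matplotlib 3.10.9 were used.

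The members and lists were chosen with earlier results of these data known. Of each list the text names the gene with the most UMIs and those with the highest and lowest ratio, and some further genes chosen after their values were seen. For each member it names genes from the 5 with the highest Pearson r. Some genes that these rules or gates hold are not reported here. Promoter sequences came from RefSeq, and 4 of 5 members had a window.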

Additional observations from a re-analysis of the deposited data

Results flagged for a closer look

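Nr4a1 lay on opposite sides of 1 in different cell types under the same contrast of 1 thonzonium and 1 control library. Its ratio was 1.56 in NK cells and 1.29 in monocytes and macrophages, against 0.503 in B cells and 0.504 in Cd4 T cells. With a single library on each side, the difference between these cell types was not tested.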

How the results depend on the processing

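Over 46 results and 11 alternative settings, 397 of 458 values lay within the 95% counting interval of the value reported, 60 lay outside it and 1, whose interval excluded 1, turned its direction. Another 18 values, in 10 results whose intervals include 1, also lay on the other side of 1. The one with an interval excluding 1 was Nr4a3 in Foxp3 T over NK cells of the control library, 0.949 with cells thinned to 1000 UMIs. For Tox in CD8 T cells the thonzonium over control ratio was 1.88 without lineage exclusions, 2.80 with each cell scaled alike and 2.93 thinned. It was 2.66 without the cells richest in UMIs, 1.16 with equal subset weights and 1.89 without cells with a Trbv13-1 UMI. For Nr4a2 in CD8 T cells the ratio was 1.64 without exclusions, 2.25 scaled alike and 2.49 thinned. It was 1.30 with equal weights and 1.70 without cells with a Trbv13-1 UMI. Nr4a2 in Gzmk over naive-gene CD8 T cells was 6.24 with stricter gates, 5.87 thinned and 6.27 without the richest cells. Nr4a1 in NK cells was 1.91 with stricter gates and 2.61 thinned, and in monocytes and macrophages 1.08 scaled alike and 1.22 thinned, where Nr4a3 was 0.721 thinned. Nr4a1 in nonclassical over classical monocytes was 1.98 thinned in the thonzonium library, and 3.16 scaled alike and 2.77 thinned in the control library. The cause of these shifts was not tested. Depth limits the ratios of Nr4a1 in T cells and of Tox2, which rest on few UMIs. The gates for dendritic cells, the Trbv13-1 split and leaving out shared barcodes were chosen after seeing the data. In 6 cases stricter gates or a 10% mitochondrial limit left under 50 cells and gave no value. No paired analysis was possible because each group is a single library, which also leaves no replicate to leave out.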
